A study of Mus musculus with 4 samples.

Results

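The interstitial collagens and stromal matrix genes described here are 34 genes of the 17630 with values in the files: 16 collagen chains, 15 matrix glycoproteins and proteoglycans, the cartilage and tendon protein chondromodulin, and the PDGF receptors alpha and beta. They were selected on earlier results of these same libraries, namely their log2 differences between sorted cells, between colonies and between the controls, so their values are a description and support nothing by themselves. All 34 were found by gene symbol.

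The study asked how sympathetic nerve signals act on mammary basal cells, the outer contractile layer of the mammary duct that also holds its stem cells. Wild-type (WT) mouse basal cells were used in all groups, with 1 library per condition. The sorted control library came from control mice, and the 6-OHDA library from mice given 6-hydroxydopamine, a toxin taken up by sympathetic nerve endings, which it destroys. The other libraries came from basal colonies in Matrigel, either untreated (control colonies) or with salbutamol and phenylephrine, agonists of the beta-2 and alpha-1 adrenergic receptors (SP colonies, whose label carries the number 200 with no unit). Cells had been sorted as CD24-positive and CD29-high after removal of cells bearing CD31, CD45 or TER119. For these libraries the sources used here state neither the age at which the cells were taken nor how many mice were pooled. With 1 library per condition there is no spread between replicates, so no test was made, and every difference is between 2 libraries.

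Interstitial collagens are triple helices secreted mainly by fibroblasts. The fibrillar types I, III and V build the fibres of connective tissue, type VI forms beaded filaments around cells, and types XII, XIV and XVI sit on the surface of fibres. Small proteoglycans set the width and spacing of fibrils, elastin and fibrillin give tissue its recoil, and matricellular proteins such as periostin and tenascin-C change how cells attach. In the mammary gland most of this matrix lies outside the basement membrane, on which the basal cells rest and which they help to build.

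Levels are FPKM, fragments per kilobase of transcript scaled to the number of fragments sequenced, which may be compared between genes because they are divided by length. The FPKM of all genes summed to 508071 in the sorted control, 517504 in the 6-OHDA library, 577631 with untreated colonies and 588202 with SP. Low values move in steps of a fragment, and from these steps the depth came to about 17200000, 16700000, 17750000 and 17850000 fragments in the same order, assuming fragments of 250 bases. Differences are of log2(FPKM + 1), which understates changes of low genes. A gene was tested where its mean FPKM over both libraries was at least 1. It counted as higher or lower past 0.3 in the treatment comparisons, the fold threshold of the study, and past 1 between the controls.

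The 6-OHDA library stood apart from the other libraries in salivary gland genes. The 17 genes of a salivary secretory list that were found summed to 2.84 FPKM in the sorted control, 16228 in the 6-OHDA library, 1.56 in control colonies and 2.45 in SP colonies. Bpifa2, a secreted salivary protein and the most abundant of them, was listed at 0 in the sorted control and at 7277 FPKM in the 6-OHDA library. The list took 3.14% of the FPKM sum there. Rescaling the libraries without these genes gave 19 members higher and 1 lower after 6-OHDA, against 18 and 1 as deposited. Over all tested genes it gave 2065 higher and 889 lower, against 1857 and 981 as deposited. Such rescaling multiplies all other genes of a library by the same factor, so the part of the salivary genes in the differences was not tested.

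The sorted libraries carried the markers of basal cells. Krt14, a basal keratin, was at 3595 FPKM in the sorted control, 2633 in the 6-OHDA library, 3298 in control colonies and 6920 in SP colonies. All 10 basal markers were at or above 1 FPKM in each of the 4 libraries. Markers of other cell types were present as well, and the CD31 gene Pecam1 was at 107 FPKM in the sorted control and 93.0 in the 6-OHDA library although cells bearing CD31 had been removed. In control colonies Pecam1 was at 1.39 FPKM and in SP colonies at 1.56.

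In bulk samples, fewer cells of a type and less RNA per cell cannot be told apart. The members are expressed by fibroblasts and other stromal cells as well as by basal cells, so the marker lists are set beside them below, and their part in the differences was not tested.

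**Figure D1:**
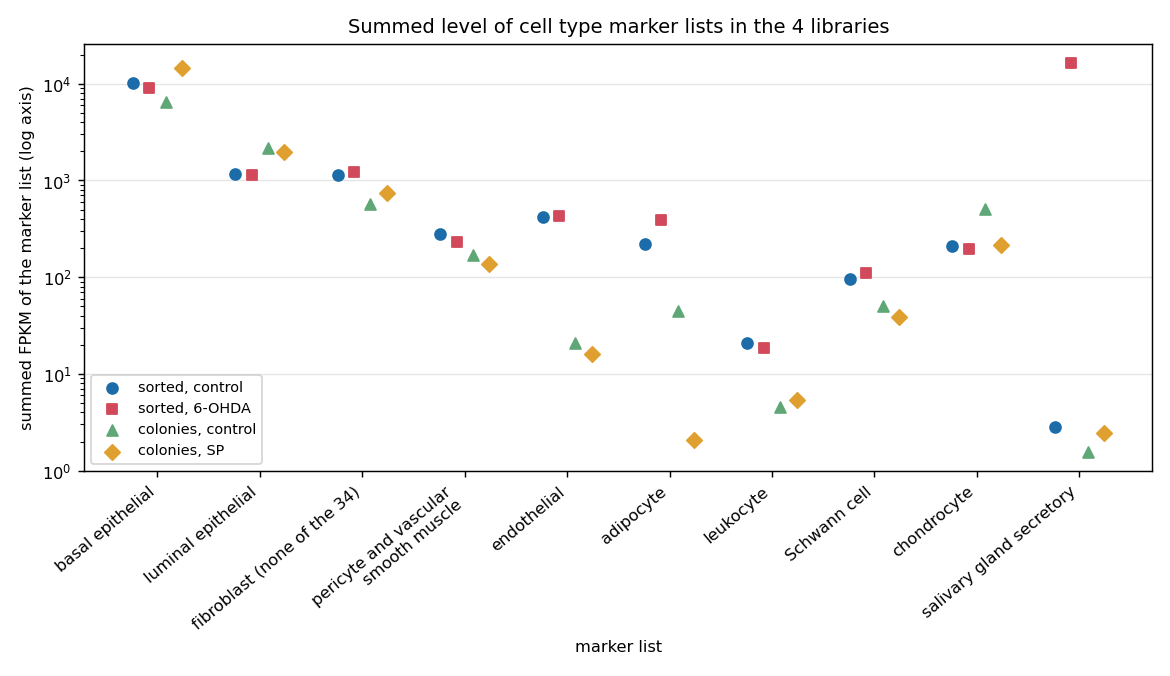
Summed FPKM of each cell type marker list (log axis) in the 4 libraries, 1 point per library. Endothelial markers summed to 422 and 426 FPKM in the sorted libraries and to 20.7 and 15.9 in the colonies, and salivary markers reached 16228 FPKM in the 6-OHDA library.

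The 34 genes took a similar share of the FPKM sum in the sorted control (0.849%), the 6-OHDA library (0.869%) and control colonies (0.821%), and a smaller share with SP (0.487%). Postn alone went from 2376 FPKM in control colonies to 1004 in SP colonies, and without it the other 33 genes took 0.711%, 0.736%, 0.41% and 0.316% in the 4 libraries in that order. They spanned a wide range of levels. Thbs1 led the sorted control at 1353 FPKM, while Cnmd was lowest there at 0.19. In control colonies Postn led at 2376 FPKM and Mfap5 was lowest at 0.09. Adhesive and matricellular genes made up most of the sum in every library, with 2969 of 4315 FPKM in the sorted control and 2225 of 2862 in SP colonies. The fibrillar collagens were a small part, summing to 100.4 FPKM in the sorted control, 283.8 in the 6-OHDA library, 48.8 in control colonies and 21.7 in SP colonies.

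**Figure D2:**
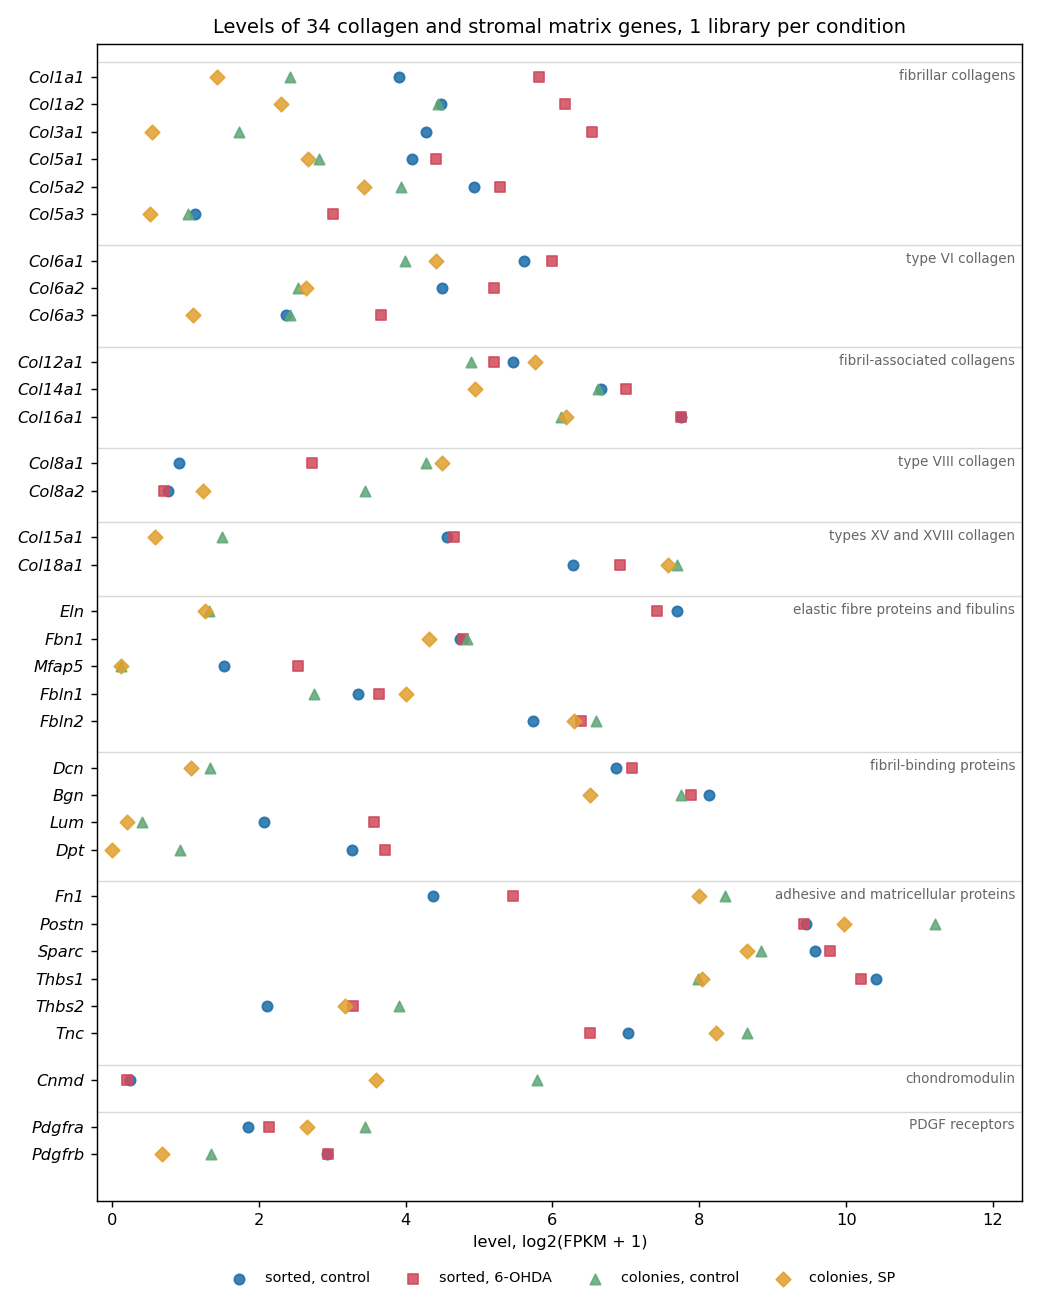
Level of each of the 34 genes as log2(FPKM + 1) in the 4 libraries, 1 point per library, grouped by role. Postn, Sparc and Thbs1 lie at the high end in all 4 libraries, and Eln and Dcn lie high in the sorted libraries and low in the colonies.

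After 6-OHDA, 18 of the 32 members that passed the filter were higher and 1 was lower, and 13 lay within the threshold. Among all 11749 tested genes 15.8% were higher and 8.35% were lower. Nothing is read from the member counts against these shares, since this contrast helped to choose the members. The median difference was 0.35 over the tested members and 0.33 over all 34, beside 0.06 over all tested genes. Col8a2 and Cnmd did not pass the filter. Col5a1 was just inside the upper threshold with a difference of 0.33 and Fbln1 just outside it at 0.28. On the lower side Tnc was inside at -0.51 and Eln just outside at -0.28.

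With SP, 3 of the 30 members that passed the filter were higher, 18 were lower and 9 lay within the threshold. Among all 11849 tested genes 11.7% were higher and 19.8% were lower, and here too the contrast helped to choose the members. The median difference was -0.47 over the tested members and -0.47 over all 34, beside -0.07 over all tested genes. Col5a3, Mfap5, Lum and Dpt did not pass the filter, and with these included 20 members lay past the lower threshold. Fbln2 was just inside that threshold at -0.30 and Dcn just outside it at -0.26. On the upper side Col6a1 was inside at 0.43 and Col8a1 outside at 0.22.

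Between the controls, 9 of the 33 tested members were higher in colonies, 13 were lower and 11 lay within the threshold of 1. Among all 12244 tested genes 30.7% were higher and 13.2% were lower, and this contrast also helped to choose the members. Under scaling by the median ratio 8 members were higher and 18 lower, beside 2137 higher and 2587 lower among all tested genes. The median over all tested genes was 0.45, a shift that scaling by the median ratio took to -0.01, while the median over tested members was -0.58 as deposited and -1.06 after that scaling. Mfap5 did not pass the filter. Col18a1 was just inside the upper threshold at 1.42 and Fbln2 just outside it at 0.86, and on the lower side Col5a1 was inside at -1.26 and Col5a2 just outside at -0.99. Col5a1 lost its call at a pseudocount of 5 (-0.92). Col5a2 passed at a pseudocount of 0.1 (-1.03) and under every scaling tried (-1.17 to -1.47). This comparison shares a control library with each treatment comparison, so its values are given beside theirs and are not related to them.

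**Figure D3:**
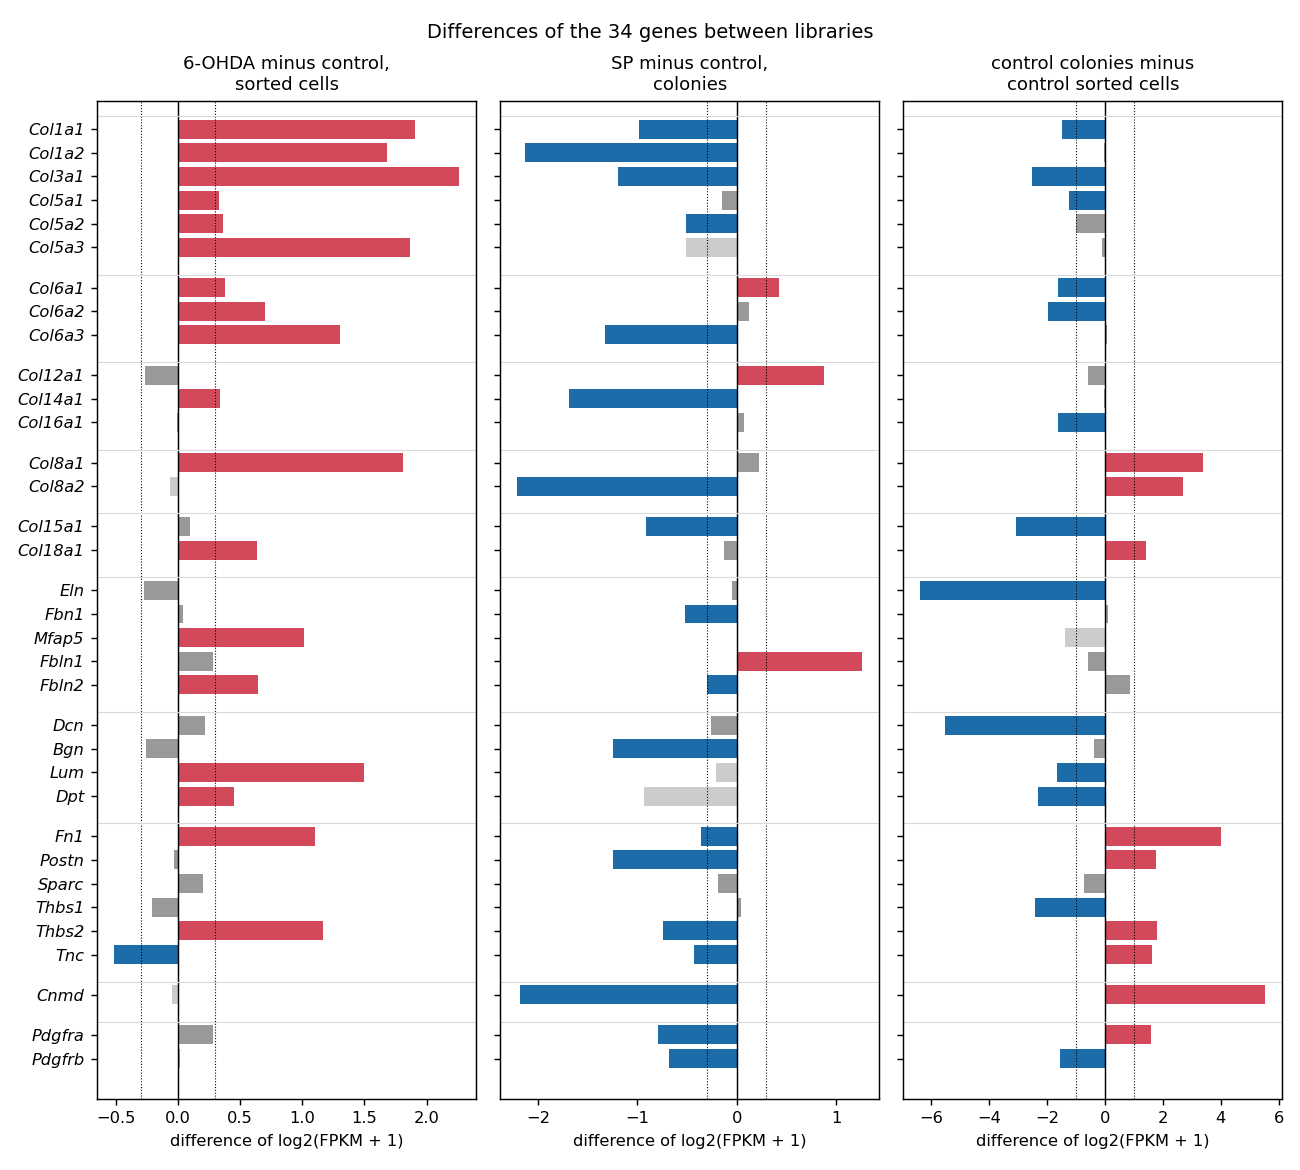
Differences of log2(FPKM + 1) for the 34 genes in the 3 comparisons, on a separate scale in each panel. Red bars are past the upper threshold, blue bars past the lower one (dotted lines), dark grey bars lie within, and light grey bars did not pass the filter on low values. All 6 fibrillar collagen genes are red after 6-OHDA.

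Type I and type III collagen are the main fibres of loose connective tissue, and their genes were higher after 6-OHDA and lower with SP. Col3a1, the single chain of type III, was at 18.3 FPKM in the sorted control, 91.7 in the 6-OHDA library, 2.33 in control colonies and 0.46 in SP colonies. Col1a1, the more numerous chain of type I, was at 14.0, 55.4, 4.35 and 1.71 FPKM in the same order. Col1a2, the other chain of type I, was at 21.4, 71.1, 20.6 and 3.94 FPKM. Each of these genes was highest in the 6-OHDA library and lowest in the SP colonies. Their differences after 6-OHDA were 2.26 for Col3a1, 1.91 for Col1a1 and 1.68 for Col1a2. With SP they were -1.19, -0.98 and -2.13.

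The 2 chains of type I collagen did not keep a fixed ratio. The FPKM ratio of Col1a1 to Col1a2 was 0.65 in the sorted control, 0.78 in the 6-OHDA library, 0.21 in control colonies and 0.43 in SP colonies. Between the controls Col1a1 was lower in colonies, with a difference of -1.49, and Col1a2 had a difference of -0.05. Col3a1 was lower there by a difference of -2.54.

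Type V collagen starts the assembly of fibrils and limits their width. Col5a1 was at 16.03 FPKM in the sorted control, 20.4 in the 6-OHDA library, 6.10 in control colonies and 5.40 in SP colonies. Col5a2 was at 29.4, 38.2, 14.3 and 9.78 FPKM, and Col5a3 at 1.20, 7.03, 1.05 and 0.44. The less abundant chain moved most after 6-OHDA, with a difference of 1.87 for Col5a3 beside 0.33 for Col5a1 and 0.37 for Col5a2. The call of Col5a1 was lost under scaling by the median ratio (0.27), at a pseudocount of 5 (0.27) and under quantile normalization (0.29). With SP, Col5a2 was lower (-0.51) and Col5a1 was within the threshold (-0.15). The ratio of Col5a1 to Col5a2 stayed between 0.43 in control colonies and 0.55 in SP colonies.

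The main form of type VI collagen joins an alpha-1, an alpha-2 and an alpha-3 chain in each unit of its beaded filaments. Further type VI chains can take the place of alpha-3, and their genes belong to the other collagen genes counted below. Col6a1 was at 48.0 FPKM in the sorted control, 62.7 in the 6-OHDA library, 15.0 in control colonies and 20.4 in SP colonies. Col6a2 was at 21.7, 35.8, 4.77 and 5.27 FPKM, and Col6a3 at 4.16, 11.7, 4.40 and 1.16. After 6-OHDA all 3 chains were higher, with differences of 0.38, 0.70 and 1.3. With SP they parted: Col6a1 was higher (0.43), Col6a2 lay within the threshold (0.12) and Col6a3 was lower (-1.32). The FPKM ratio of Col6a1 to Col6a3 was thus 3.40 in control colonies and 17.6 in SP colonies. Between the controls Col6a1 (-1.62) and Col6a2 (-1.97) were lower in colonies, and Col6a3 had a difference of 0.07 that turned negative under every scaling tried.

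The fibril-associated collagens, which link fibres to their surroundings, had a larger summed FPKM than the fibrillar ones in each library. In the 6-OHDA library, however, Col12a1 was below Col3a1, Col1a2, Col1a1 and Col5a2. Col16a1 was at 215 FPKM in the sorted control, 214 in the 6-OHDA library, 68.4 in control colonies and 72.0 in SP colonies. Col14a1, which binds fibrils in skin and tendon, was at 101, 127, 97.6 and 29.7 FPKM. Col12a1, found in tissue under tension, was at 43.2, 35.8, 28.6 and 53.4 FPKM. Within this group the directions with SP were mixed: Col12a1 was higher (0.88), Col14a1 lower (-1.68) and Col16a1 within the threshold (0.07). After 6-OHDA only Col14a1 of the 3 passed, at 0.34, and it fell short at 0.28 under scaling by the median ratio. Col16a1 was lower in control colonies than in sorted cells (-1.64).

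Type VIII collagen, a short-chain network collagen of vessel walls and the cornea, was nearly absent from the sorted control. Col8a1 was at 0.88 FPKM there, 5.59 in the 6-OHDA library, 18.4 in control colonies and 21.6 in SP colonies. Col8a2 was at 0.70, 0.63, 9.93 and 1.37 FPKM. Both chains were higher in control colonies than in sorted cells, by differences of 3.37 and 2.68. The chains then differed in each treatment: after 6-OHDA Col8a1 was higher (1.81) and Col8a2 was below the filter, and with SP Col8a2 was lower (-2.21) and Col8a1 within the threshold (0.22). The ratio of Col8a1 to Col8a2 was 1.85 in control colonies and 15.8 in SP colonies.

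Types XV and XVIII are proteoglycan collagens of the basement membrane zone, and their ends can be cut off as restin and endostatin. Col15a1 was at 22.7 FPKM in the sorted control, 24.3 in the 6-OHDA library, 1.83 in control colonies and 0.50 in SP colonies. Col18a1 was at 76.8, 119.65, 207 and 189 FPKM. The pair went opposite ways between the controls, with Col15a1 lower in colonies (-3.06) and Col18a1 higher (1.42, and 0.92 after scaling by the median ratio). Col18a1 was higher after 6-OHDA (0.63) and Col15a1 lower with SP (-0.92).

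Elastic fibres have a core of elastin on a scaffold of fibrillin microfibrils. Eln, which encodes elastin, was at 207 FPKM in the sorted control, 171 in the 6-OHDA library, 1.5 in control colonies and 1.42 in SP colonies. Fbn1, the fibrillin of the scaffold, was at 25.7, 26.5, 27.6 and 19.0 FPKM. Mfap5, a small microfibril protein, was at 1.87, 4.78, 0.09 and 0.09 FPKM, the last values standing for about 2.0 fragments each. Elastin had the most negative difference of all members between the controls, at -6.38, while fibrillin was level there (0.10) and lower with SP (-0.52). Mfap5 was higher after 6-OHDA (1.01). Eln after 6-OHDA was at -0.28, within the threshold, and at -0.30 and -0.34 when rescaled to the same sum or by the median ratio.

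The fibulins bridge elastic fibres, basement membranes and proteoglycans. Fbln1 was at 9.19 FPKM in the sorted control, 11.4 in the 6-OHDA library, 5.72 in control colonies and 15.1 in SP colonies. Fbln2 was at 52.3, 82.4, 95.6 and 77.4 FPKM. With SP the fibulins split, Fbln1 being higher by 1.26, the most positive difference of any member, and Fbln2 lower by a difference of -0.30 that fell within the threshold at -0.23 under scaling by the median ratio and at -0.29 with a pseudocount of 5. Fbln2 was higher after 6-OHDA (0.65).

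Decorin, biglycan and lumican are small leucine-rich proteoglycans that bind fibrils, and dermatopontin binds decorin. Dcn was at 115 FPKM in the sorted control, 135 in the 6-OHDA library, 1.52 in control colonies and 1.11 in SP colonies. Bgn was at 280.0, 235, 215 and 90.0 FPKM. The related genes had unlike profiles: Dcn was nearly absent from colonies (difference between the controls -5.53) whereas Bgn was close in both controls (-0.38) and lower with SP (-1.24). The FPKM ratio of Dcn to Bgn was 0.41 in the sorted control and 0.0071 in control colonies.

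Lum was at 3.22 FPKM in the sorted control, 10.9 in the 6-OHDA library, 0.33 in control colonies and 0.15 in SP colonies. Dpt was at 8.62, 12.1 and 0.91 FPKM in the same order and was listed at 0 in SP colonies. Both genes were higher after 6-OHDA, with differences of 1.5 for Lum and 0.45 for Dpt, and both were lower in control colonies than in sorted cells (-1.67 and -2.33), a call that Lum lost at a pseudocount of 5. Their values in colonies rest on few fragments, about 12.9 for Lum and 23.8 for Dpt in the control colonies.

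Fibronectin, periostin, SPARC, thrombospondins and tenascin-C regulate attachment, collagen binding and growth factor access. Fn1 was at 19.6 FPKM in the sorted control, 43.2 in the 6-OHDA library, 327 in control colonies and 255 in SP colonies. Postn was at 702, 688, 2376 and 1004 FPKM. Tnc was at 129, 90.5, 401 and 297 FPKM. These 3 genes were higher in control colonies than in sorted cells, by differences of 3.99, 1.76 and 1.62, and lower with SP, at -0.36, -1.24 and -0.43. The call of Fn1 with SP was lost at -0.28 under scaling by the median ratio. After 6-OHDA Fn1 was higher (1.10), Tnc was the lower member (-0.51) and Postn was level (-0.03).

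Sparc was at 761 FPKM in the sorted control, 877 in the 6-OHDA library, 456 in control colonies and 399.6 in SP colonies. Thbs1 was at 1353, 1172, 253 and 260.4 FPKM, and Thbs2 at 3.34, 8.75, 14.1 and 8.0. The thrombospondins, which share their domain plan, moved in opposite directions between the controls, Thbs1 being lower in colonies (-2.42) and Thbs2 higher (1.80). Thbs2 was higher after 6-OHDA (1.17) and lower with SP (-0.74). Thbs1 and Sparc lay within the threshold in both treatment comparisons.

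Chondromodulin, a cartilage and tendon protein that restrains vessel growth, was a colony gene. Cnmd was at 0.19 FPKM in the sorted control, 0.15 in the 6-OHDA library, 54.2 in control colonies and 11.2 in SP colonies. Its difference between the controls, 5.53, was the most positive of all members, and it was lower with SP (-2.18). The sorted values stand for about 3.9 and 3.0 fragments, so nothing can be said of 6-OHDA.

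The PDGF receptors mark fibroblasts (alpha) and pericytes (beta) and receive growth signals. Pdgfra was at 2.62 FPKM in the sorted control, 3.40 in the 6-OHDA library, 9.95 in control colonies and 5.32 in SP colonies. Pdgfrb was at 6.61, 6.68, 1.56 and 0.60 FPKM. Between the controls they went opposite ways, alpha higher in colonies (1.60) and beta lower (-1.57). With SP both were lower, at -0.79 and -0.68, and after 6-OHDA both lay within the threshold, at 0.28 and 0.01. These calls depend on the pseudocount: at 5 Pdgfrb fell short with SP (-0.23) and both genes fell short between the controls (0.97 and -0.82), and at 0.1 Pdgfra passed after 6-OHDA (0.36).

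The treatment comparisons share no library, so their calls may be set side by side. Of the 28 members tested in both, 9 were higher after 6-OHDA and lower with SP (32.1%), against 2.59% of the 10799 genes tested in both. These were Col1a1, Col1a2, Col3a1, Col5a2, Col6a3, Col14a1, Fbln2, Fn1 and Thbs2. Col6a1 was higher in both and Tnc lower in both, and as deposited no member was lower after 6-OHDA and higher with SP. Over all genes tested in both these shares were 2.83%, 1.83% and 1.08%. Under scaling by the median ratio Col12a1 was lower after 6-OHDA and higher with SP (-0.32 and 0.95). Col14a1, Fbln2 and Fn1 no longer had both calls there, which gave 6 of 28 members (21.4%) against 1.51% of all genes tested in both. At a mean FPKM of at least 5, Col1a1, Col3a1 and Col6a3 were too low in colonies to be tested. That setting gave 6 of 19 members (31.6%) against 1.83% of all genes tested in both. A further 6 members were lower with SP and within the threshold after 6-OHDA: Col15a1, Fbn1, Bgn, Postn, Pdgfra and Pdgfrb (21.4% of members, beside 14.9% of all genes). Since both contrasts helped to choose the members, the larger share is a description of the choice.

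Fibroblast markers that are not among the 34 genes were counted in the same way. Loxl1 of this list also stands in the crosslinking list below. Of the 23 found, 18 were tested after 6-OHDA, with 9 higher and 4 lower and a median difference of 0.37, beside 15.8% higher and 8.35% lower among all tested genes. With SP 11 were tested, with 5 higher and 4 lower and a median of 0.06, beside 11.7% and 19.8% of all tested genes. The list summed to 1138 FPKM in the sorted control, 1226 in the 6-OHDA library, 571 in control colonies and 749 in SP colonies. Vim, an intermediate filament gene also made by basal cells, led in the sorted libraries and in control colonies, and Ly6a, a surface protein that many cells carry, led in SP colonies. Without Ly6a the sum was 521 FPKM in control colonies and 483 in SP colonies, so the larger sum with SP rests on that gene.

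Serpinf1, which encodes the secreted factor PEDF, was at 16.1 FPKM in the sorted control and 36.2 in the 6-OHDA library, a difference of 1.13. Islr, a stromal cell protein, was at 1.49 and 4.06 FPKM, a difference of 1.02. Of the 4 lower markers, Gsn, an actin-severing protein, was at 294 and 221 FPKM (-0.41) and Mmp2, a matrix protease, at 94.3 and 68.2 (-0.46). With SP, Sfrp2, a secreted WNT modulator, was at 29.0 FPKM in control colonies and 5.56 in SP colonies (-2.19), while Ly6a was at 50.4 and 266 FPKM (2.38). The fibroblast markers Clec3b and Sfrp4 were listed at 0 in control colonies, and Pi16 and Fap in SP colonies.

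Stromal cell types other than fibroblasts were covered by further lists, whose counts stand beside the same shares of all tested genes (15.8% higher and 8.35% lower after 6-OHDA, 11.7% and 19.8% with SP). Pericyte and vascular smooth muscle markers summed to 282 FPKM in the sorted control, 230.0 in the 6-OHDA library, 171 in control colonies and 138 in SP colonies, led by Mcam, which basal cells also make, in each. Of 12 tested after 6-OHDA, 4 were higher and 2 lower, and of 5 tested with SP, 4 were lower. Adipocyte markers summed to 220.2, 389.9, 45.2 and 2.07 FPKM, of which 210.2, 374, 34.4 and 1.05 FPKM were Fabp4, a fatty acid carrier that endothelial cells make as well. Of 4 adipocyte markers tested after 6-OHDA 3 were higher, and both of the 2 tested with SP were lower. Plin1, Cidec, Retn, Cfd, Car3 and Plin4 were listed at 0 in SP colonies.

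Endothelial markers summed to 422 FPKM in the sorted control and 426 in the 6-OHDA library, with 2 of 14 higher and none lower. Between the controls 13 of the 14 were lower in colonies, beside 13.2% of all tested genes. Leukocyte markers were low throughout, with sums of 20.9, 18.7, 4.50 and 5.41 FPKM, led by Cd68 in each library, and 11 of the 17 were listed at 0 in control colonies. Schwann cell markers summed to 94.9, 112, 50.4 and 38.9 FPKM, led by Sox10 in the sorted libraries and Erbb3 in the colonies. After 6-OHDA 2 of 7 tested Schwann markers were higher. Luminal markers had 3 higher and 3 lower of 12 tested after 6-OHDA, beside 15.8% and 8.35% of all tested genes. With SP 1 was higher and 6 were lower of 13, beside 11.7% and 19.8% of all tested genes.

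Chondrocyte markers were followed because Cnmd is a cartilage gene. They summed to 209 FPKM in the sorted control, 194 in the 6-OHDA library, 507 in control colonies and 217 in SP colonies. Col9a3, a chain of the cartilage collagen type IX, led the colonies at 396 and 148 FPKM (difference with SP -1.42). Col2a1, the main cartilage collagen, was at 0.90 FPKM in the sorted control, 6.64 in control colonies and 2.24 in SP colonies. Acan, Matn1, Hapln1 and Matn3, cartilage matrix genes named after their values were seen, were at 0.18 FPKM or less in every library. Comp and Ucma of the list were at 1.11 FPKM or less in every library. Col9a2 was at 107 FPKM in the sorted control, and Sox9, a transcription factor that mammary epithelium also makes, was at 39.1, 42.7, 37.9 and 46.1 FPKM. Of 6 tested with SP 4 were lower and none higher, beside 19.8% and 11.7% of all tested genes. The lower ones, Col2a1, Col9a1, Col9a2 and Col9a3, are also counted among the other collagen genes below.

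Basal markers went the other way from the members with SP. Of 10 tested, 7 were higher and 1 was lower, beside 11.7% and 19.8% of all tested genes, and their sum was 6525 FPKM in control colonies and 14412 in SP colonies. Krt5 was at 1888 and 4579 FPKM, a difference of 1.28. After 6-OHDA 1 was higher and 2 were lower, beside 15.8% and 8.35% of all tested genes.

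Genes that make and crosslink collagen were counted in the same way. Of 31 in the list, 28 were tested after 6-OHDA, with 7 higher and none lower, and a median difference of 0.13. Among all tested genes 15.8% were higher and 8.35% lower, with a median of 0.06. The largest differences of the list were in lysyl oxidases, which crosslink collagen. Lox was at 2.42 FPKM in the sorted control and 6.26 in the 6-OHDA library, Loxl1 at 0.91 and 3.04, and Loxl2 at 4.14 and 9.21, with differences of 1.09, 1.08 and 0.99, while Loxl4 was level at 1.79 and 1.78 (-0.01). With SP, 26 were tested, with 4 higher and 11 lower and a median of -0.16, beside 11.7% and 19.8% of all tested genes. Of the catalytic subunits of prolyl 4-hydroxylase, which stabilises the triple helix, P4ha1 and P4ha2 were among the higher ones, P4ha1 at 12.7 FPKM in control colonies and 28.9 in SP colonies (1.13), and P4ha2 at 5.10 and 18.0 (1.64), while P4ha3 did not pass the filter (0.86 and 0.52 FPKM). The other kind of subunit, P4hb, lay within the threshold (288 and 345 FPKM, 0.26). Loxl3 was lower (14.3 and 5.36 FPKM, -1.27). Ppib, a folding enzyme and the most abundant gene of the list in both colony libraries, was at 389 and 386 FPKM.

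Collagen and matrix receptors had 5 higher and 1 lower of 19 tested after 6-OHDA, and 3 higher and 8 lower of 18 tested with SP. Among all tested genes 15.8% were higher and 8.35% lower after 6-OHDA, and 11.7% and 19.8% with SP. Itga2, a collagen-binding integrin subunit of epithelium, was at 6.34 FPKM in control colonies and 16.9 in SP colonies (1.28). Itga11, the collagen integrin subunit of fibroblasts, was at 8.99 and 4.55 FPKM (-0.85). Between the controls Itga11 was higher in colonies (0.42 and 8.99 FPKM, a difference of 2.81), and Itga9, which binds tenascin-C, was lower (28.0 and 0.23 FPKM, -4.56).

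The collagen genes outside the 34 gave 5 higher and none lower of 16 tested after 6-OHDA, and 1 higher and 7 lower of 12 tested with SP. The shares over all tested genes were 15.8% and 8.35% after 6-OHDA and 11.7% and 19.8% with SP. Col28a1 was at 0.58 FPKM in the sorted control and 3.74 in the 6-OHDA library (1.59), and Col9a1 at 2.72 and 8.60 (1.37). Col9a2 was at 51.5 FPKM in control colonies and 12.1 in SP colonies (-2.00). Between the controls the basement membrane chains Col4a1 (327 and 23.5 FPKM) and Col4a2 (223 and 20.4) were lower in colonies, and Col11a1, a minor fibrillar chain of cartilage, was higher (4.49 and 71.5).

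Other stromal matrix genes gave 17 higher and 6 lower of 43 tested after 6-OHDA, with a median of 0.10, beside 15.8% and 8.35% of all tested genes. Cilp, a matrix protein of cartilage and fibroblasts, was at 1.12 FPKM in the sorted control and 8.36 in the 6-OHDA library (2.14). Thbs4 was at 3.67 and 13.6 FPKM (1.65), and Aspn, a relative of decorin, at 1.88 and 7.56 (1.57). Among the lower ones were Matn4, a matrilin, at 38.5 and 22.5 FPKM (-0.75) and Tgfbi, a cell adhesion protein, at 34.9 and 20.4 (-0.75). With SP 5 were higher and 16 lower of 27 tested, with a median of -0.60, beside 11.7% and 19.8% of all tested genes. Smoc1, a SPARC relative of basement membranes, was at 0.33 FPKM in the sorted control, 44.8 in control colonies and 12.9 in SP colonies (-1.72 with SP). Ltbp2, a microfibril protein, was at 31.7 FPKM in control colonies and 9.41 in SP colonies (-1.65).

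Genes of the TGF-beta and PDGF axis act on collagen expression in fibroblasts. Of 19 tested after 6-OHDA 3 were higher and 2 lower, beside 15.8% and 8.35% of all tested genes. Of 18 tested with SP 2 were higher and 5 lower, beside 11.7% and 19.8% of all tested genes. Pdgfc, a ligand of the alpha receptor, was at 48.5 FPKM in control colonies and 24.9 in SP colonies (-0.93), and Tgfb3 at 46.8 and 29.96 (-0.63). Basement membrane genes gave 3 higher and none lower of 16 tested after 6-OHDA, beside 15.8% and 8.35% of all tested genes. With SP they gave 3 higher and 4 lower of 14 tested, beside 11.7% and 19.8% of all tested genes. Their median with SP was -0.09, beside -0.07 over all tested genes. Lama3, a laminin chain, was at 102 FPKM in control colonies and 191 in SP colonies (0.91), and Nid1, which links laminin to type IV collagen, at 9.85 and 6.81 (-0.47).

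Some members lie next to each other in the genome (GRCm38.p6, the build named in the submitters' notes as mm10). Col3a1 and Col5a2 lie on chromosome 1 with 24.6 kb between them, and Col6a2 and Col6a1 on chromosome 10 with 85.2 kb between them. Dcn and Lum, also on chromosome 10, are 47.3 kb apart. Neighbours did not move alike in size: the differences after 6-OHDA were 2.26 and 0.37 in the first pair, 0.70 and 0.38 in the pair of type VI, and 0.22 and 1.5 for Dcn and Lum.

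Promoter sequences from RefSeq (GRCm38.p6) matched 23 of the 34 members, with 28 starts. Members were taken for a difference above 1 after 6-OHDA and below -1 with SP, a choice made after their values were seen. It depends on the processing. With SP, differences over the alternatives ranged from -2.12 to -0.42 for Col3a1, -1.84 to -0.61 for Col6a3 and -1.30 to -0.48 for Col1a1. At a pseudocount of 1 the members taken were Col1a2, Col3a1 and Col6a3. For each, 150 bases before a start listed in RefSeq are shown because these members passed that choice. Between the controls their differences were unlike, at -0.05, -2.54 and 0.07 in the same order. Each window is printed 5′ to 3′ on the strand of its gene, with capitals for 3 motifs searched on both strands. The motifs were TATAAA as in many core promoters, CCAAT as in the CAAT box and GGGCGG as in the GC box. Col1a2 lies at chr6:4505468-4505617 on the plus strand, Col3a1 at chr1:45311388-45311537 on the plus strand and Col6a3 at chr1:90843972-90844121 on the minus strand. The start used for Col6a3 lies 30 bases inside the outer end of the gene at 90844001, so part of its window is in the annotated gene.
Col1a2: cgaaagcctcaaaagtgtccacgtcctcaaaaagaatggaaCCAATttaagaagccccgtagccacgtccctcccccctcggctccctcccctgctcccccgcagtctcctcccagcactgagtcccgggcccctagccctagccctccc
Col3a1: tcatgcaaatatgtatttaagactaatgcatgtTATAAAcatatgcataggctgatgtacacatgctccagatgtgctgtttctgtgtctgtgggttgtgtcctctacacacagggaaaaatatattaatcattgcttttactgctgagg
Col6a3: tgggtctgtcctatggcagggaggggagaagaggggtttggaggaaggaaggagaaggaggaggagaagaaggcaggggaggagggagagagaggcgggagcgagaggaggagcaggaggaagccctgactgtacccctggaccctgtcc
The 3 windows share none of the motifs. Col1a2 held CCAAT, which 24.5% of all 32851 promoters hold in this window, and Col3a1 held TATAAA, which 7.57% hold. Col6a3 held none of them, and GGGCGG, present in 28.6%, was in none of the 3 windows. Over the 28 member starts, 4 held TATAAA, 4 held CCAAT and 9 held GGGCGG. A match describes letters and not a binding site.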

How the data were processed

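RNA from sorted basal cells or basal colonies was sequenced by the authors, with 1 library per condition. The authors deposited FPKM values with 2 decimals for 17630 genes. The submitters' processing notes name Bowtie2, RSEM 1.3.1, DESeq2 1.4.5 and the mm10 build, without roles. Of the gene numbers, 17512 matched the RefSeq gene table of GRCm38.p6.

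Differences of log2(FPKM + 1) were taken where the mean FPKM of the libraries compared reached 1. FPKM values are not counts, so no count test was run, and no p-value is given. The members and the gene lists were chosen with earlier results of these data known. Named genes were all members and, of each other list, the 3 tested genes with the largest difference in each comparison, the most abundant gene and genes at 0 in every library; not all are printed, and zeros in single libraries, Gsn, Mmp2, Loxl4, P4ha3, Matn4, Tgfbi, Sox9, Comp, Ucma, Acan, Matn1, Hapln1 and Matn3 were added after their values were seen. Tcf21 and Smr2 of the lists were not analysed here. The steps were run on simulated data with large changes planted in genes well above the filter. Calls near a threshold, changes of low genes and spread between replicates were not covered. Depth was fitted with assumed fragment lengths from 150 to 300 bases, giving 14950000 to 18800000 fragments, a rough estimate. Python 3.11.15, numpy 2.4.6, pandas 2.3.3 and matplotlib 3.10.9 were used.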

Additional observations from a re-analysis of the deposited data

How the results depend on the processing

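The 9 alternatives were pseudocounts of 0.1 and 5, no filter, a mean FPKM of at least 5, rescaling to the same sum with and without the salivary genes, scaling by the median ratio, quantile normalization, and the other threshold. No called value of a named gene changed sign. Of the members' values under the alternatives apart from the other threshold, 718 kept their side of the threshold, 24 newly passed it and 13 no longer did. After 6-OHDA, between 15 and 20 members were higher apart from the other threshold, and members lower went from 1 to 2 when rescaled to the same sum and to 4 by the median ratio. At a threshold of 1, 10 members were higher and 0 lower after 6-OHDA, and 1 higher and 8 lower with SP. With SP the members' median of -0.47 became -0.33 at a pseudocount of 5 and -0.36 at a mean FPKM of at least 5, where fewer genes are tested. Between the controls the median of -0.58 became -0.40 at a pseudocount of 5, -0.76 when rescaled to the same sum, with or without salivary genes, -1.06 by the median ratio and -0.71 by quantile normalization. Over all tested genes after 6-OHDA, 1857 higher and 981 lower became 804 and 539 at a pseudocount of 5, 1066 and 639 at a mean FPKM of at least 5, and 123 and 106 at a threshold of 1. With SP 1385 higher and 2351 lower became 237 and 158 at a threshold of 1, and 1276 were lower at a pseudocount of 5. Between the controls 3761 higher and 1619 lower became 2027 and 1019 at a pseudocount of 5, 2137 and 2587 by the median ratio, 6817 and 3252 at a threshold of 0.3, and 2431 were higher by quantile normalization. The share of higher genes among those past the threshold was 65.4% after 6-OHDA, 50.4% by the median ratio, 47.3% by quantile normalization; with SP 37.1%, 50% and 47.2%; between the controls 69.9%, 45.2% and 51.5%. The cause of these moves was not tested. Low members in colonies rest on few fragments. No count test was run, since each condition has 1 library and the deposited values are FPKM. No paired analysis was possible because each condition has 1 library.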

Other observations

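Of 38 other stromal matrix genes tested between the controls, 6 were higher and 18 lower in colonies, beside 30.7% and 13.2% of all tested genes. Has1, a hyaluronan synthase, was at 42.4 FPKM in the sorted control and 0.09 in control colonies, a difference of -5.32. Fmod, a proteoglycan of the same family as lumican, was at 55.7 and 1.34 FPKM (-4.60). In the other direction Smoc1 was at 0.33 and 44.8 FPKM (5.11) and Matn4 at 38.5 and 190.1 (2.27). Cd36, a thrombospondin receptor and fatty acid carrier, was at 24.3 FPKM in the sorted control, 41.7 in the 6-OHDA library, 2.42 in control colonies and 0.07 in SP colonies.

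Of the 10 basal markers 5 were lower in control colonies than in sorted cells and none was higher, beside 13.2% and 30.7% of all tested genes. Myh11, the smooth muscle myosin heavy chain, was at 467 FPKM in the sorted control and 11.2 in control colonies (-5.26), and Cnn1, an actin-binding protein, at 515 and 30.4 FPKM (-4.04). The basal keratins differed among themselves in the same libraries, with Krt14 at 3595 and 3298 FPKM (-0.12), Krt5 at 1002 and 1888 (0.91) and Krt17 at 2266 and 725 (-1.64).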
